A study of Homo sapiens with 12 samples.

Results

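Ribosomal protein genes were described in MDA-MB-231 cells, a human breast cancer line. They were taken as every gene whose symbol is RPL or RPS followed by a number, or that of a stalk or RPSA gene, on a probe set that carries no other symbol. Kinases named for RPS6 and pseudogenes were dropped. The rule found 67 genes among 18417 tested, on 102 of 33297 probe sets. They comprised 41 proteins of the large subunit, 24 of the small subunit and the stalk proteins RPLP1 and RPLP2. A gene's value was that of its probe set with the highest mean, and 23 of the 67 genes had more than 1 probe set. Of 87 ribosomal protein genes in the RefSeq gene table, 20 had no such probe set. For 11 of these, among them RPL13A, RPS18 and RPS26, the symbol stood only on probe sets shared with other symbols. The other 9, among them RPLP0, RPSA and RPS27A, were not analysed here. The 2 members on the Y chromosome are counted, and their levels are not given.

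Total RNA was measured on Affymetrix Human Gene 1.0 ST arrays, and the design asked which genes HMGA2, Tet1 and HOXA9 regulate in these cells. All groups are labelled as subline 1833 of MDA-MB-231, a line of basal, mesenchymal-like breast cancer cells. The 3 control arrays carry no construct in their labels. The 3 shHMGA2 arrays are of cells with a lentiviral shRNA against HMGA2, a chromatin protein that binds AT-rich DNA, under puromycin. The 2 Tet1 arrays are of cells with an inducible Flag-tagged Tet1, an enzyme that oxidises methylated cytosine, and the 2 HOXA9 arrays are of cells with an inducible HOXA9, a homeobox transcription factor. Both inducible lines also carried the Tet-On 3G regulator, were selected with G418 besides puromycin, and grew in serum approved for tetracycline systems. Their source names give the subline as 1834 where the titles give 1833. Subline, serum, selection and construct cannot be told apart when these lines are set against control. The labels speak of biological replicates without saying whether they were separate cultures, so p-values measure the spread between these arrays, which may be partly technical.

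A ribosome joins a small subunit, which reads the messenger RNA, to a large subunit, which forms the peptide bond. Each is built of ribosomal RNA and a fixed set of proteins, most of them needed in equal numbers. The messenger RNAs of these proteins are among the most abundant of growing cells. Most start with a cytosine followed by a run of pyrimidines, the 5′ terminal oligopyrimidine (TOP) tract, through which LARP1 and the mTOR pathway control their translation and stability. Many of the genes carry small nucleolar RNAs in their introns, and many have processed pseudogenes, so an array probe can match copies elsewhere in the genome.

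The start of the transcript is where these genes share a sequence feature that their names do not contain. A promoter of RefSeq (GRCh38.p14) was found for 54 of the 65 members off the Y chromosome. A tract, defined as C within 5 bases of a listed start followed by at least 4 pyrimidines (C or T) on the transcribed strand, was found in 45 of the 54 (83.3%) and in 25.2% of all 27305 genes in the table. The 8 windows of 30 bases that follow span a listed start with 15 bases on either side, and capitals mark the tract. They show RPL13, with the largest rise in the inducible lines, and RPL27, which rose almost as far and has no tract at its listed start. RPS6 and RPL7A had the largest rises in shHMGA2. RPL22 with RPL22L1, and RPS27 with RPS27L, are pairs of paralogs. The windows lie at chr16:89560667-89560696 (plus strand) for RPL13, chr17:42998404-42998433 (plus) for RPL27, chr9:19380222-19380251 (minus) for RPS6, chr9:133348203-133348232 (plus) for RPL7A, chr1:6199581-6199610 (minus) for RPL22, chr3:170870181-170870210 (minus) for RPL22L1, chr1:153990747-153990776 (plus) for RPS27 and chr15:63157463-63157492 (minus) for RPS27L.
RPL13: ttgcggggccgCTTCCTTTCCgctcggctg
RPL27: ccggggtgaaaggttagcggaagtgtcctt
RPS6: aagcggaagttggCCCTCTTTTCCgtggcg
RPL7A: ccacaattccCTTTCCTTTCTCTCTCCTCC
RPL22: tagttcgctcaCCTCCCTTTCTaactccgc
RPL22L1: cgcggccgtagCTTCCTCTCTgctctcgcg
RPS27: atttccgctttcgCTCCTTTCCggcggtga
RPS27L: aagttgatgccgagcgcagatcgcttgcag

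The tract was at least 10 bases long in RPL13, RPS6, RPL7A, RPL22 and RPL22L1 and was 9 bases long in RPS27. The 9 members without one at a listed start were RPL10L, RPL17, RPL26L1, RPL27, RPL7L1, RPS15, RPS27L, RPS29 and RPS4X, and 4 of these 9 are named as paralogs of another member. Within 250 bases before to 50 bases after a listed start, the letters CCGGAA, the core bound by ETS-family factors, stood on either strand in 31 of 54 members (57.4%) against 20.1% of all genes. The letters AAGATGGC, the core of the YY1 motif, stood in 5 of 54 (9.3%) against 3.5%, and the motifs can overlap by the letters AA. A match describes the letters of a window and does not show that a factor binds there.

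The members were bright. The median over members of the mean log2 level was 11.91, and 40 of 67 were brighter than 95% of all probe sets (11.59). The 2 members below the 30th percentile (6.26), under which a probe set is not known to lie above background, were those on the Y chromosome. Arrays of one group also repeated closely for these genes, with a median residual SD of 0.06 against 0.09 over all genes on the log2 scale.

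Control with shHMGA2, and Tet1 with HOXA9, formed distinct array sets. Correlations over all probe sets were 0.987 to 0.998 and 0.993 to 0.997 within the sets and 0.946 to 0.966 between them. Array medians over all probe sets were 7.21 to 7.28 in the first and 7.66 to 7.71 in the second, so comparisons across sets were also made after one quantile normalization of all arrays and after setting array medians equal. TET1 was 2.41 higher in shHMGA2 and 0.51 higher in Tet1 than in control (log2, as deposited). The shift in array medians between the sets is similar in size to the 0.51. The group means of TET1 were 6.56 in control, 8.97 in shHMGA2, 7.07 in Tet1 and 7.30 in HOXA9, so the arrays labelled Tet1 did not have the highest level. Group names are those of the labels throughout. The probe set of HMGA2, which it shares with ELAC2, was 0.75 lower in shHMGA2. As deposited it was 0.86 higher in Tet1 and 0.85 higher in HOXA9 than in control. HOXA9 had no probe set with its symbol.

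In the inducible lines most ribosomal protein genes stood higher than in control, while a small set led by RPL23 and RPL22 stood lower. In Tet1, 51 of 67 members rose and 6 fell at an adjusted p under 0.05, among 53.9% of all genes that rose and 23.2% that fell, and the split became 42 and 10 after quantile normalization (32.6% and 33.3% of all genes) and 25 and 18 with equal medians (21.9% and 51.4%). In HOXA9, 51 rose and 7 fell, among 54.0% and 21.6% of all genes, with splits of 41 and 10 (29.7% and 34.0% of all genes) and of 24 and 18 (20.3% and 51.1%) under these scalings. Both comparisons used the same 3 control arrays. The groups did not overlap for 54 higher and 6 lower members in Tet1 (58.5% and 27.2% of all genes) and for 52 and 8 in HOXA9 (57.8% and 25.1%).

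The median member differed from control by 0.47 in Tet1 and 0.45 in HOXA9 (log2), and the median gene by 0.25 and 0.24. The median gene moved with the scaling in Tet1, to -0.0006 after quantile normalization and to -0.22 with equal medians. The median member stood above it by 0.22 as deposited and 0.31 after quantile normalization in Tet1, and by 0.21 and 0.26 in HOXA9. Setting array medians equal subtracts a single constant from each array. It therefore cannot change this gap and gives no separate check of it. Relative to the median gene, 50 of 67 members in Tet1 and 51 in HOXA9 lay higher as deposited, a count with no test. Under all 3 scalings 25 members were called higher and 6 lower in Tet1, and 24 and 7 in HOXA9. The array medians of the members were 11.63 to 11.70 in control, 11.74 to 11.81 in shHMGA2, 12.30 and 12.32 in Tet1, and 12.24 and 12.29 in HOXA9.

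**Figure D1:**
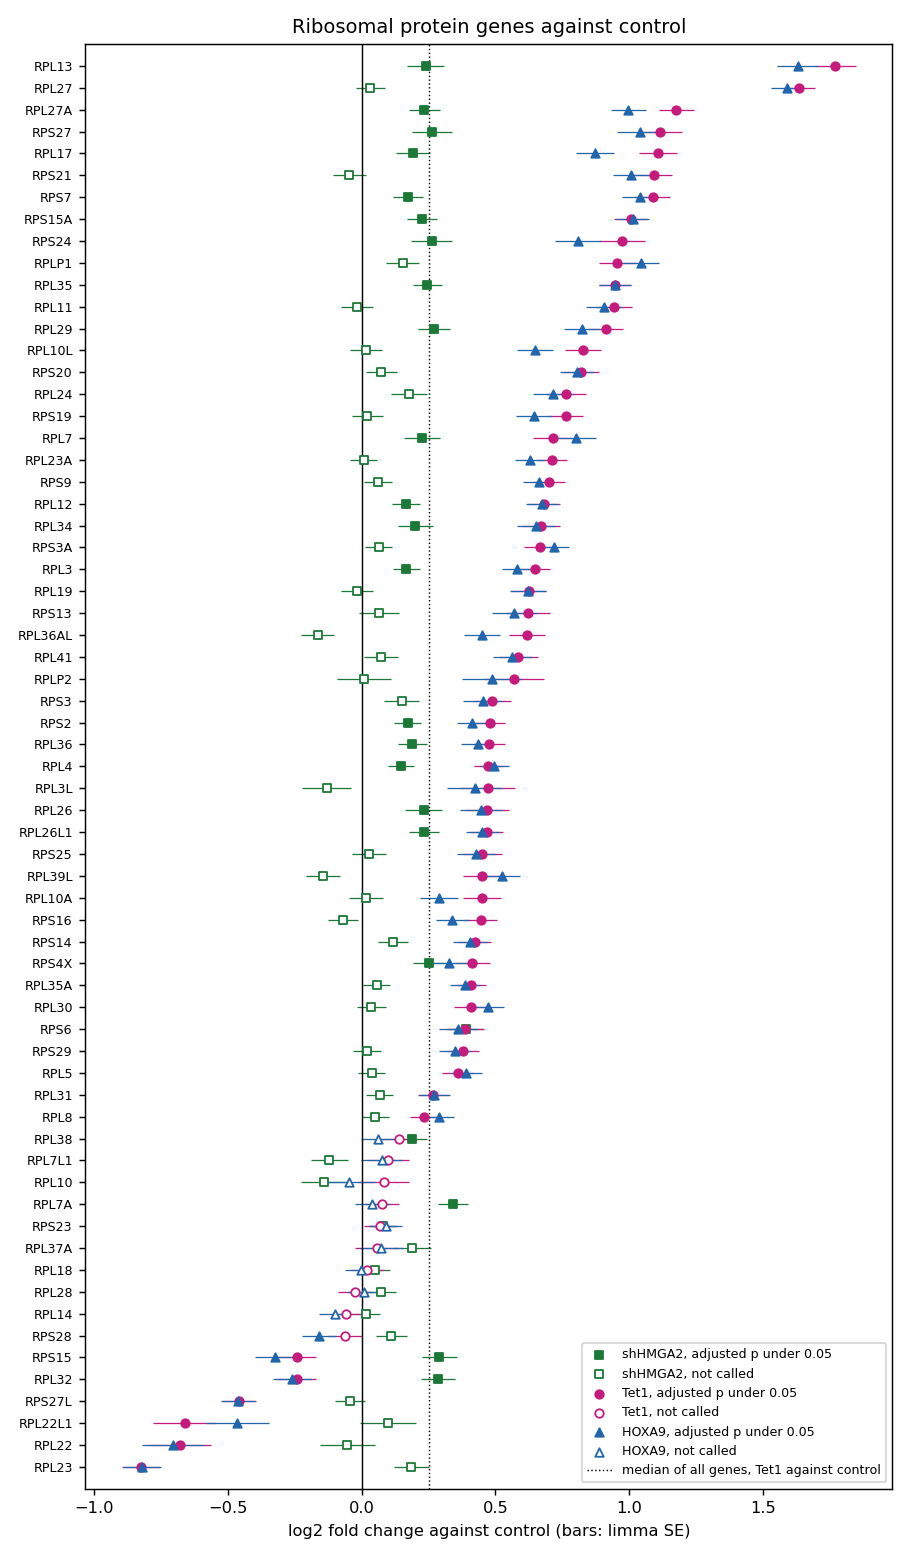
Log2 fold change against control of each of the 65 members off the Y chromosome, ordered by the change in Tet1. Squares are shHMGA2, circles Tet1 and triangles HOXA9. Bars are limma's standard errors, filled symbols have an adjusted p under 0.05, and the dotted line is the median of all genes in Tet1 (0.25). RPL13 and RPL27 lie farthest to the right and RPL23 and RPL22 farthest to the left in both inducible lines, whose controls are shared, and all changes in shHMGA2 are under 0.40.

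Of the 41 large-subunit members, 29 rose and 4 fell in Tet1, and the counts were equal in HOXA9. Of all genes 53.9% rose and 23.2% fell in Tet1, and 54.0% and 21.6% in HOXA9. When array medians were set equal the large-subunit counts were 15 and 14 in Tet1, and 14 and 14 in HOXA9. The shares of all genes were then 21.9% and 51.4% in Tet1, and 20.3% and 51.1% in HOXA9. RPL13 measured 9.45, 9.60 and 9.70 in the control arrays, 11.38 and 11.34 in Tet1 and 11.21 and 11.23 in HOXA9. On this probe set every array of the inducible lines was above every control array. The change was 1.77 ± 0.08 (SE) in Tet1, or 3.41-fold (adjusted p = 8.2e-09), and 1.63 ± 0.08 in HOXA9 (adjusted p = 1.6e-08), though the probe set numbered at the gene's own locus gave 0.59 (adjusted p = 0.014) and 0.32 (adjusted p = 0.14, not called). On that probe set both HOXA9 arrays, at 9.20 and 9.15, lay below the third control array, at 9.27.

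RPL27, mutated in some patients with Diamond-Blackfan anaemia, an inherited failure of red cell production, has a single probe set. It measured 9.73 in each control array, 11.40 and 11.33 in Tet1 and 11.38 and 11.26 in HOXA9. The change was 1.64 ± 0.06 in Tet1 and 1.59 ± 0.06 in HOXA9, with adjusted p of 2.5e-09 and 3.1e-09. The 3 control arrays were nearly identical, and no array of the inducible lines came near them.

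RPL17, whose protein lines the exit tunnel of the growing peptide, measured 7.38, 7.54 and 7.48 in control, 8.50 and 8.65 in Tet1, and 8.33 and 8.36 in HOXA9. Neither inducible line overlapped control. The changes were 1.11 ± 0.07 and 0.87 ± 0.07. RPL11 and RPL5 form, with 5S ribosomal RNA, a particle that binds and inhibits MDM2 when ribosome assembly fails. RPL11 has a single probe set, while the probe sets of RPL5 gave different answers. RPL11 went from 11.23, 11.32 and 11.39 in control to 12.23 and 12.28 in Tet1 and 12.28 and 12.16 in HOXA9, a change of 0.94 ± 0.07 and 0.91 ± 0.07. RPL5 changed by 0.36 ± 0.06 and 0.39 ± 0.06, but by -0.06 and -0.03 after quantile normalization and by -0.11 and -0.06 with equal medians. Its probe set at the gene's own locus was called lower, at -0.36 in Tet1 and -0.27 in HOXA9 (adjusted p = 0.0013 and 0.0071). RPL24, RPL29 and RPL35 rose by 0.76, 0.91 and 0.95 in Tet1 and by 0.72, 0.82 and 0.95 in HOXA9.

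RPL23, also known to bind MDM2, went the opposite way from RPL11. Its values were 9.59, 9.70 and 9.77 in control, 8.83 and 8.90 in Tet1, and again 8.83 and 8.90 in HOXA9. All 4 arrays of the inducible lines were below all 3 control arrays. The change was -0.82 ± 0.07 in both lines, or 1.77-fold lower (adjusted p = 8.8e-07 in Tet1 and 1.1e-06 in HOXA9). The change of RPL27 exceeded that of RPL23 by 2.46 in Tet1 and 2.41 in HOXA9, and by 2.56 and 2.50 after quantile normalization.

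RPL22, which also binds other RNAs and whose loss mice survive, fell together with its paralog RPL22L1. RPL22 measured 7.61, 7.53 and 7.68 in control, 6.96 and 6.89 in Tet1, and 7.03 and 6.77 in HOXA9, changes of -0.68 ± 0.12 and -0.71 ± 0.12 (adjusted p = 0.00019 and 0.00015). RPL22L1 measured 7.76, 8.25 and 8.10 in control, 7.34 and 7.41 in Tet1, and 7.56 and 7.58 in HOXA9, changes of -0.66 ± 0.12 and -0.47 ± 0.12 (adjusted p = 0.00027 and 0.0035). Neither gene's inducible arrays overlapped control, and the lowest RPL22L1 control array lay closest to them. RPL32 fell less, by 0.24 in Tet1 and by 0.26 in HOXA9.

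**Figure D2:**
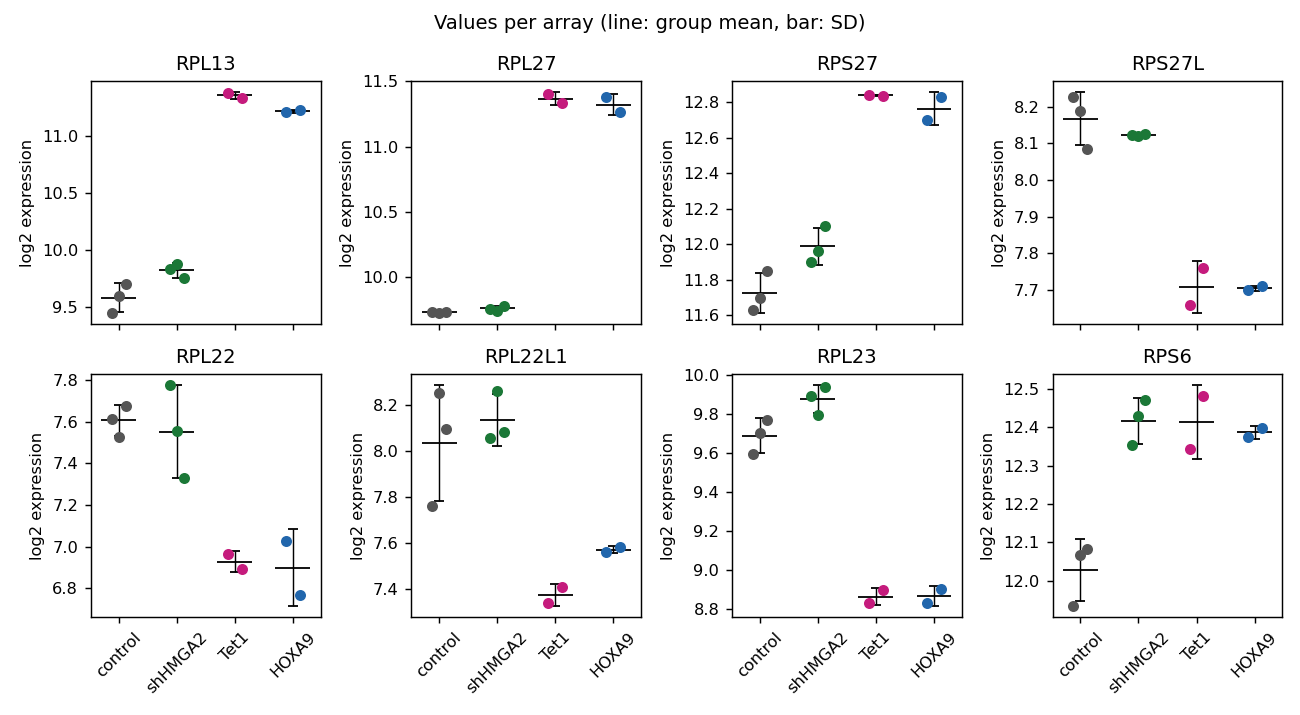
Log2 expression per array for 8 members in the 4 groups, with the group mean as a line and the SD as a bar, for 3 control, 3 shHMGA2, 2 Tet1 and 2 HOXA9 arrays. Each panel has its own axis, which does not start at 0. RPL13, RPL27 and RPS27 are higher in the inducible lines than in control, RPS27L, RPL22, RPL22L1 and RPL23 are lower, and RPS6 is higher in all 3 changed groups.

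Of the 24 small-subunit members, 20 rose and 2 fell in Tet1, and 20 rose and 3 fell in HOXA9. Of all genes 53.9% rose and 23.2% fell in Tet1, and 54.0% and 21.6% in HOXA9. When array medians were set equal 9 small-subunit members rose and 4 fell in both lines. The shares of all genes were then 21.9% and 51.4% in Tet1, and 20.3% and 51.1% in HOXA9. RPS27 is a zinc-binding protein of the small subunit. Its values went from 11.63, 11.70 and 11.85 in control to 12.84 in both Tet1 arrays and to 12.70 and 12.83 in HOXA9. The changes were 1.11 ± 0.08 and 1.04 ± 0.08, and its other probe set gave 1.11 and 1.03. Both probe sets are numbered elsewhere in the genome, and neither is numbered at the gene. Neither inducible line overlapped control for RPS27.

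RPS27L, a paralog of RPS27 known as a target of p53, fell where the probe sets of RPS27 rose. It measured 8.23, 8.19 and 8.09 in control, 7.66 and 7.76 in Tet1, and 7.70 and 7.71 in HOXA9. The change was -0.46 ± 0.06 in both lines (adjusted p = 3.6e-05 in Tet1 and 3.7e-05 in HOXA9). All 4 arrays lay below control.

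RPS7, RPS21 and RPS15A were the other small-subunit members that rose at least 2-fold in both lines as deposited. RPS7 measured 9.92, 10.03 and 9.99 in control, 11.05 and 11.09 in Tet1, and 11.05 and 10.99 in HOXA9, with changes of 1.09 ± 0.06 and 1.04 ± 0.06. RPS21 changed by 1.09 ± 0.07 and 1.01 ± 0.07, and RPS15A by 1.01 ± 0.06 in both lines. RPS19, the gene most often mutated in Diamond-Blackfan anaemia, measured 11.74, 11.84 and 11.92 in control, 12.63 and 12.57 in Tet1, and 12.52 and 12.44 in HOXA9, without overlap. RPS15, a protein of the small subunit's head, changed by -0.24 ± 0.07 in Tet1 and -0.33 ± 0.07 in HOXA9, while its other probe set at the same locus gave 0.09 and 0.10. RPS28 fell in HOXA9 by 0.16 (adjusted p = 0.04) and changed by -0.06 in Tet1, where it was not called. Its probe set lies elsewhere in the genome, and in HOXA9 the one at the gene gave -0.08 (adjusted p = 0.32) and the remaining one -0.05 (adjusted p = 0.46), neither called.

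The stalk proteins, which bring elongation factors to the ribosome, both rose, and with equal medians 1 of the 2 was still called higher in each line. RPLP1 measured 11.55, 11.66 and 11.56 in control, 12.60 and 12.50 in Tet1, and 12.64 and 12.63 in HOXA9, with changes of 0.96 ± 0.07 and 1.04 ± 0.07. RPLP2 measured 12.07, 12.12 and 11.77 in control, 12.58 and 12.53 in Tet1, and 12.44 and 12.51 in HOXA9, with changes of 0.57 ± 0.11 and 0.49 ± 0.11. No array of the inducible lines overlapped control for either protein, and the third control array of RPLP2 stood below the other two.

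Among the 8 paralogs, 5 rose, 2 fell and 1 was not called in either inducible line, and with equal medians 1 rose and 3 fell in each. Of all genes 53.9% rose and 23.2% fell in Tet1, and 54.0% and 21.6% in HOXA9. With equal medians these shares were 21.9% and 51.4% in Tet1, and 20.3% and 51.1% in HOXA9. The counts as deposited lie near these shares and do not set the paralogs apart from other genes. RPL10L, known from the testis, measured 7.15, 7.13 and 7.19 in control, 8.04 and 7.93 in Tet1, and 7.88 and 7.73 in HOXA9, with changes of 0.83 ± 0.07 and 0.65 ± 0.07. RPL3L, known from heart and skeletal muscle, changed by 0.47 ± 0.10 and 0.42 ± 0.10, and by -0.03 in HOXA9 with equal medians. RPL36AL changed by 0.62 and 0.45, RPL39L by 0.45 and 0.52, and RPL26L1 by 0.47 and 0.45, and with equal medians RPL39L turned to -0.02 in Tet1, and RPL36AL and RPL26L1 to -0.01 and just under 0 in HOXA9. RPL7L1 changed by 0.10 in Tet1 and 0.08 in HOXA9 and was not called. Of the 14 measured genes known from Diamond-Blackfan anaemia, 12 rose in each inducible line, or 7 with 3 that fell when array medians were set equal, and RPS28 fell in HOXA9 on its brightest probe set.

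As deposited, 8 members in Tet1 and 7 in HOXA9 were called and at least 2-fold different from control, and 32 and 26 were at least 1.5-fold different. In Tet1 the 8 at least 2-fold different were RPL13, RPL27, RPL27A, RPS27, RPL17, RPS21, RPS7 and RPS15A. Over the alternative processings the lowest log2 change of RPL27 in Tet1 was 1.17. For RPS27, RPL17, RPS21, RPS7 and RPS15A the lowest were 0.65, 0.64, 0.63, 0.62 and 0.54, and for RPL13 and RPL27A 0.59 and -0.96. Members with a tract at a listed start had a median change of 0.49 in Tet1 (33 higher and 3 lower of 45), and those without one 0.41 (6 higher and 2 lower of 9). In HOXA9 the medians were 0.45 and 0.35. The 2 classes were not tested against each other.

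In shHMGA2 the median member differed less from control than in the inducible lines, and the called ones all pointed up: ribosomal protein genes led by RPS6, RPL7A, RPS15 and RPL32 rose by at most 0.39 on the log2 scale. In shHMGA2, 24 of 67 members rose and 0 fell by limma at an adjusted p under 0.05, against 13.6% of all genes that rose and 12.6% that fell, with 21 and 0 after quantile normalization and 13 and 1 with equal medians. At an unadjusted p under 0.05, 29 were higher and 2 lower. The median member differed from control by 0.07 and the median gene by -0.03. The groups did not overlap for 36 higher and 3 lower members, among 18.8% and 21.7% of all genes. No called member reached 1.5-fold.

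The count of 24 rested on single arrays. It was 9 without the first control array, 11 without the third shHMGA2 array and 13 without the second shHMGA2 array, and 13 with equal medians. Without the first control array 1 member, RPL39L, was lower (-0.20, adjusted p = 0.045). RPL36AL, at -0.16 with an adjusted p of 0.067, was called lower with equal medians, in the fit on all 12 columns, and with a trended, robust prior.

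RPS6, the small-subunit protein that S6 kinases phosphorylate downstream of mTOR, measured 11.93, 12.07 and 12.08 in control and 12.35, 12.43 and 12.47 in shHMGA2. All shHMGA2 arrays were above all control arrays. The change was 0.39 ± 0.06 (1.31-fold, adjusted p = 0.00088). In Tet1 and HOXA9 RPS6 changed by 0.39 and 0.36, and by -0.08 and -0.10 with equal medians. RPL7A, a large-subunit protein, measured 11.16, 11.33 and 11.28 in control and 11.60 in each shHMGA2 array, a change of 0.34 ± 0.06 (adjusted p = 0.00093), and its probe set is numbered among genes of chromosome 18 although the gene lies on chromosome 9. In the inducible lines RPL7A changed by 0.07 and 0.04 and was not called.

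RPS15 and RPL32 rose in shHMGA2 and fell in both inducible lines. RPS15 went from 11.86, 12.01 and 11.93 in control to 12.14, 12.24 and 12.29, a change of 0.29 ± 0.07 (adjusted p = 0.0063), while its other probe set gave 0.03. RPL32 went from 9.17, 9.33 and 9.36 to 9.58, 9.50 and 9.63, a change of 0.29 ± 0.06 (adjusted p = 0.0065). Neither gene overlapped between the groups. RPL29, RPS27, RPS24 and RPS4X, the X-linked form of RPS4, followed at 0.27, 0.26, 0.26 and 0.25.

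By role, 16 of 41 large-subunit and 8 of 24 small-subunit members rose in shHMGA2 and 0 fell. Of all genes 13.6% rose and 12.6% fell there. The stalk genes RPLP1 and RPLP2 differed by 0.15 (adjusted p = 0.091) and 0.01 and were not called. Of proteins known to bind MDM2, RPL5, RPL11 and RPL23 differed by 0.04, -0.02 and 0.19 (adjusted p = 0.052 for RPL23), and none was called, with 1 higher and 0 lower at an unadjusted p under 0.05. Among the 8 paralogs RPL26L1 rose, from 9.92, 9.91 and 9.96 to 10.16, 10.11 and 10.22 (0.23, adjusted p = 0.008), but its probe set at the gene's own locus gave 0.04 (adjusted p = 0.82) and was not called. Of the 8, 3 lay above 0. Of the other 57 members off the Y chromosome, 23 rose and 51 lay above 0.

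Markers of cell identity moved in the same arrays. Genes of a stretch of 9p21 that MDA-MB-231 is known to lack were all higher in shHMGA2 (4 of 4). These genes were higher by 3.78 (KLHL9), 2.48 (CDKN2A), 1.72 (MTAP) and 0.56 (CDKN2B). Their mean level per array was 6.64 to 6.83 in control and 8.69 to 9.15 in shHMGA2, with KLHL9 under the 30th percentile in control. Of 9 traits of an embryonic kidney line 5 were higher and 0 lower (5 and 0 also at an unadjusted p under 0.05), where 13.6% and 12.6% of all genes were. This list was taken over from an earlier analysis of these data, so its count is not an independent test. Its per-array means were 6.59 to 6.69 in control and 7.42 to 7.63 in shHMGA2, with CDH6 and TFAP2B under the 30th percentile in both. The differences were 4.47 for HOXD10, 1.65 for NEFM, 1.17 for NEFL, 0.54 for CITED1 and 0.25 for WT1, and lay between -0.12 and 0.10 for CDH6, LHX1, PAX2 and TFAP2B. Of 7 markers of MDA-MB-231, 6 were lower, from 11.83 to 11.88 down to 11.28 to 11.51. Their part in the rise of the ribosomal protein genes was not tested, and in bulk RNA a change in the mix of cells cannot be told apart from a change within each cell.

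In the inducible lines, where 53.9% of all genes were higher and 23.2% lower in Tet1 and 54.0% and 21.6% in HOXA9, 6 of 9 kidney line traits were higher and 1 lower in Tet1, and 5 and 2 in HOXA9, with means of 7.09 to 7.15 and 6.98 to 7.11, and 3 and 3 and 2 and 3 after quantile normalization. Of the markers of MDA-MB-231, 4 of 7 were higher and 3 lower in Tet1 and 3 and 3 in HOXA9, with means of 12.25 to 12.26 and 12.27 to 12.30, and 1 and 4 and 2 and 4 with equal medians. S100A4 differed by 3.11 and 3.18, and the other 6 of these markers by -0.76 to 0.62 in Tet1 and by -0.66 to 0.68 in HOXA9. All 5 fibroblast markers were higher in both (4 after quantile normalization and 3 with equal medians), from 6.78 to 6.85 in control to 7.89 in Tet1 and 7.56 in HOXA9, with DCN under the 30th percentile in every group. Of the 8 luminal breast markers 4 were higher and 1 lower in each line, or 2 and 4 with equal medians, with CDH1 and PGR under the 30th percentile in every group. Of the 3 measured blood markers all were higher as deposited and 1 higher and 1 lower in each line with equal medians, at 5.72 to 5.73 in control and 6.10 to 6.25 in the inducible lines, with PTPRC under the 30th percentile throughout. Their part in the results was not tested.

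Between Tet1 and HOXA9 no ribosomal protein gene was called different. Of 67 members, 0 were called by limma in either direction, where 0.114% of all genes were higher and 0.32% lower in Tet1 than in HOXA9, and 4 members (RPL17, RPL10L, RPL27A and RPL36AL, all higher in Tet1) had an unadjusted p under 0.05 against 1687 genes in all. The differences ran from -0.20 for RPL22L1 to 0.23 for RPL17, and the smallest adjusted p was 0.33. The groups did not overlap for 23 higher and 9 lower members, among 20.8% and 20.5% of all genes. RPL17 measured 8.50 and 8.65 in Tet1 and 8.33 and 8.36 in HOXA9, which did not overlap. The 95% interval had a median distance of 0.16 from the estimate to either bound. The bound farthest from 0 was 0.48 in size, for RPL22L1, so larger differences lay outside every interval. Other members had closer bounds, such as -0.10 to 0.19 for RPL27, and differences inside a member's own interval were not resolved. With the averaged columns counted as arrays, RPL17, RPL10L and RPL27A were called higher in Tet1.

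Probe sets of one gene gave different answers for several members. Probe sets are numbered along the genome (97.8% of neighbouring named probe sets share a chromosome), so a probe set's place was read from its neighbours in number. By this reading 63 of the 102 lay at the gene, 26 lay elsewhere and 13 were not settled. For the probe sets with the highest mean the counts were 43, 14 and 10. Tet1 arrays showed a median spread among a gene's probe sets of 0.26 over 23 genes, against 0.05 in shHMGA2.

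RPL27A had the widest spread. Its probe set with the highest mean, of unsettled place, gave 1.18 in Tet1, and the 2 at the gene gave 0.57 and -0.96. In HOXA9 they gave 1.00, 0.38 and -0.93, and in shHMGA2 0.23, 0.33 and 0.81. Probe sets were called both ways in Tet1 for RPL27A, RPL5 and RPS3A. RPL5, brightest on a probe set numbered elsewhere, gave 0.36 and 0.38 on the 2 copies elsewhere and -0.36 at the gene. RPS3A, a small-subunit protein with 5 probe sets, ranged from -0.39 to 0.67, both ends from probe sets elsewhere, and gave 0.58 at the gene.

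RPL7L1, RPS15 and RPS28 also had probe sets on both sides of 0 in Tet1, and for RPL7L1 the one at the gene was called lower (-0.29, adjusted p = 0.039) where the brighter one was at 0.10. RPL34, RPL26L1 and RPL12 had the same sign on their probe sets in Tet1, with different sizes. RPL34 gave 0.67 elsewhere and 1.53 at the gene in Tet1, RPL26L1 0.47 and 1.17, and RPL12 0.68 and 1.01. RPLP1, RPS27 and RPS9 had probe sets within 0.16 of each other, though both of RPS27 lay elsewhere. In 15 of the 23 genes every probe set was called higher in Tet1, and in 14 in HOXA9. With the probe set at the gene's own locus, 48 members were higher and 9 lower in Tet1, 48 and 8 in HOXA9, and 21 and 0 in shHMGA2, an alternative chosen after seeing the data.

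**Figure D3:**
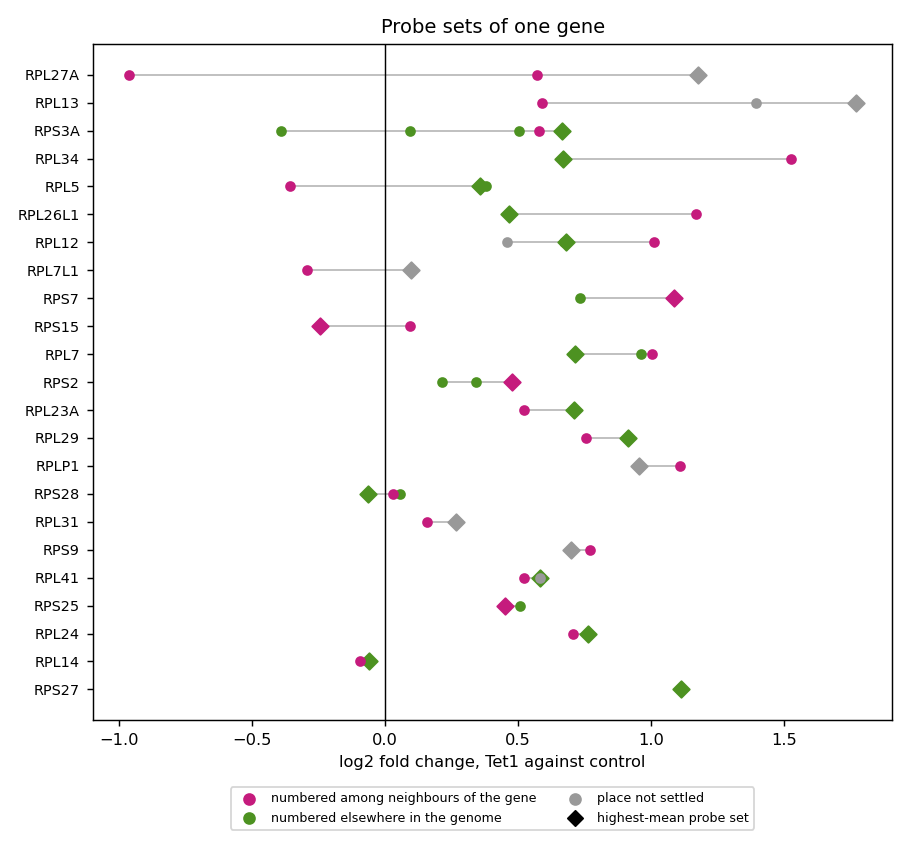
Log2 fold change in Tet1 against control for each probe set of the 23 genes with more than 1, ordered by spread, with diamonds for the probe set of highest mean and colours for its place by neighbours in probe set number. RPL27A spans -0.96 to 1.18, and RPL27A, RPL5 and RPS3A have probe sets called on both sides of 0. RPS27 has both at 1.11, and both are numbered elsewhere in the genome.

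Small nucleolar RNAs inside these genes, which guide chemical modification of ribosomal RNA and are cut from the introns of the host transcript, ranged more widely than their hosts in the inducible lines. Of 41 that lie in member genes by the RefSeq table, 18 in 12 hosts were measured. Host values are those of the probe set with the highest mean. That probe set is numbered elsewhere for RPL12, RPL23A, RPL5 and RPL7A, and its place is not settled for RPL27A and RPS20. In Tet1, 12 rose and 3 fell (10 and 6 with equal medians), with a median of 1.04 where the same hosts had 0.61. Of all genes 53.9% rose and 23.2% fell in Tet1, or 21.9% and 51.4% with equal medians. In HOXA9 12 of the small nucleolar RNAs rose and 2 fell (9 and 7 with equal medians), with medians of 0.84 and, for the hosts, 0.53. The shares of all genes were 54.0% and 21.6% in HOXA9, or 20.3% and 51.1% with equal medians. SNORA21 rose by 2.03 in Tet1 and 1.83 in HOXA9 while its host RPL23 fell. SNORA52 rose by 3.52 and 3.21 in RPLP2, and SNORA3A by 3.24 and 3.10 in RPL27A, where SNORA3B changed by -0.06 and 0.11. SNORD4A fell in RPL23A, with changes of -1.02 and -0.935, while that host rose by 0.71 and 0.63.

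In Tet1 12 of 18 had the sign of the host, and over the 18 pairs, which share arrays and in part hosts, Pearson's r was -0.07 and Spearman's rho -0.19. Probe sets at the gene gave other host values in Tet1. RPL5 was at -0.36 there and RPL27A at 0.57 and -0.96, while RPL12 (1.01) and RPL23A (0.525) kept their sign. Signs and correlations were not recomputed from these probe sets in any comparison. In shHMGA2 16 of 18 had the sign of the host, with r at 0.50 and rho at 0.26. There 6 rose and 0 fell by limma, where 13.6% of all genes rose and 12.6% fell. At an unadjusted p under 0.05, 8 of the small nucleolar RNAs were higher and 0 lower. The largest rise was SNORD36B (0.79, adjusted p = 0.00023), whose host RPL7A had the second largest rise of the members. SNORD15A and SNORD15B rose by 0.66 and 0.53 in RPS3, which differed by 0.15 and was not called.

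**Figure D4:**
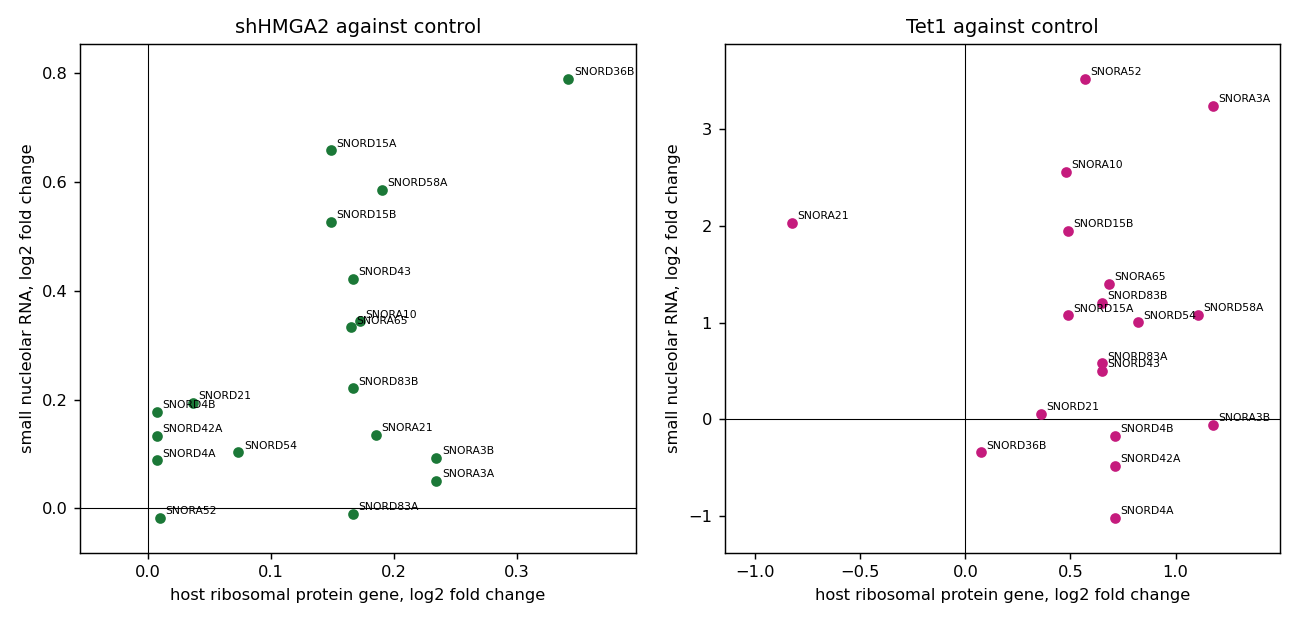
Log2 fold change of 18 small nucleolar RNAs against that of the ribosomal protein gene whose intron holds them, in shHMGA2 (left) and Tet1 (right) against control, 1 point per small nucleolar RNA. The axes differ between panels and between a host and its small nucleolar RNA. Host values are those of the probe set with the highest mean. It is not placed at the gene for RPL12, RPL23A, RPL5, RPL7A, RPL27A and RPS20. SNORA21 lies at 2.03 with its host RPL23 at -0.82, and SNORD36B with RPL7A is at the upper right of the left panel.

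Other genes of the ribosome's supply were read from lists. Of 37 ribosome biogenesis genes, which process ribosomal RNA and assemble subunits, 7 rose and 25 fell in Tet1 and 6 rose and 22 fell in HOXA9, where 23.2% and 21.6% of all genes fell, or 0 and 33 and 1 and 32 with equal medians, where 51.4% and 51.1% did. The medians were -0.40 and -0.42 where the ribosomal proteins had 0.47 and 0.45. UTP4 and NOP14, of the small-subunit processome, fell by 1.03 and 1.06 in Tet1, and PES1, of the large subunit's assembly, rose by 0.56. In shHMGA2 7 of the 37 rose, led by POLR1B (0.44) and RRN3 (0.39) of RNA polymerase I, and 0 fell by limma (8 and 1 at an unadjusted p under 0.05). Of all genes 13.6% rose and 12.6% fell there.

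Of 25 translation factors and other genes whose messenger RNAs carry a TOP tract, 15 rose and 5 fell in Tet1 and 14 and 5 in HOXA9, shares (60.0% and 20.0%, 56.0% and 20.0%) near those of all genes (53.9% and 23.2%, 54.0% and 21.6%), with medians of 0.27 and 0.29 that turned to -0.20 and -0.16 (3 higher and 14 lower, and 3 and 13) with equal medians. HNRNPA1 and NACA rose by 1.11 and 0.96 in Tet1, and PABPC4 and PABPC1 fell by 0.90 and 0.58. Of 20 genes that control the synthesis of ribosomal proteins, 5 rose and 8 fell in Tet1 and 5 and 9 in HOXA9, or 0 and 17 and 0 and 16 with equal medians. For both lists the shares of all genes with equal medians were 21.9% higher and 51.4% lower in Tet1. In HOXA9 these shares were 20.3% and 51.1%. RPTOR, the mTOR partner that binds substrates, fell by 1.16 in Tet1, EIF4EBP2 by 1.11, and EIF4EBP1, like EIF4EBP2 a repressor of cap-dependent translation, rose by 0.63. LARP1, which binds the TOP tract, fell by 1.06 in HOXA9. In shHMGA2, where 13.6% of all genes rose and 12.6% fell, the counts were 6 and 1 for the first list and 3 and 1 for the second. EIF2S3 was at 0.48 and TSC1 at 0.33.

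Mitochondrial ribosomal proteins, which build a separate ribosome, were divided in the inducible lines. Of 73, 23 rose and 28 fell in Tet1 (31.5% and 38.4%, against 53.9% and 23.2% of all genes). In HOXA9 24 rose and 25 fell (32.9% and 34.2%, against 54.0% and 21.6%). The medians were -0.05 and 0.03. With equal medians 2 rose and 62 fell in Tet1, against 21.9% and 51.4% of all genes, and 2 and 58 in HOXA9, against 20.3% and 51.1%. MRPL54 rose by 1.17 and MRPL46 fell by 1.41 in Tet1. In shHMGA2 16 rose and 4 fell (21.9% and 5.5%, against 13.6% and 12.6% of all genes), with a median of 0.05.

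**Figure D5:**
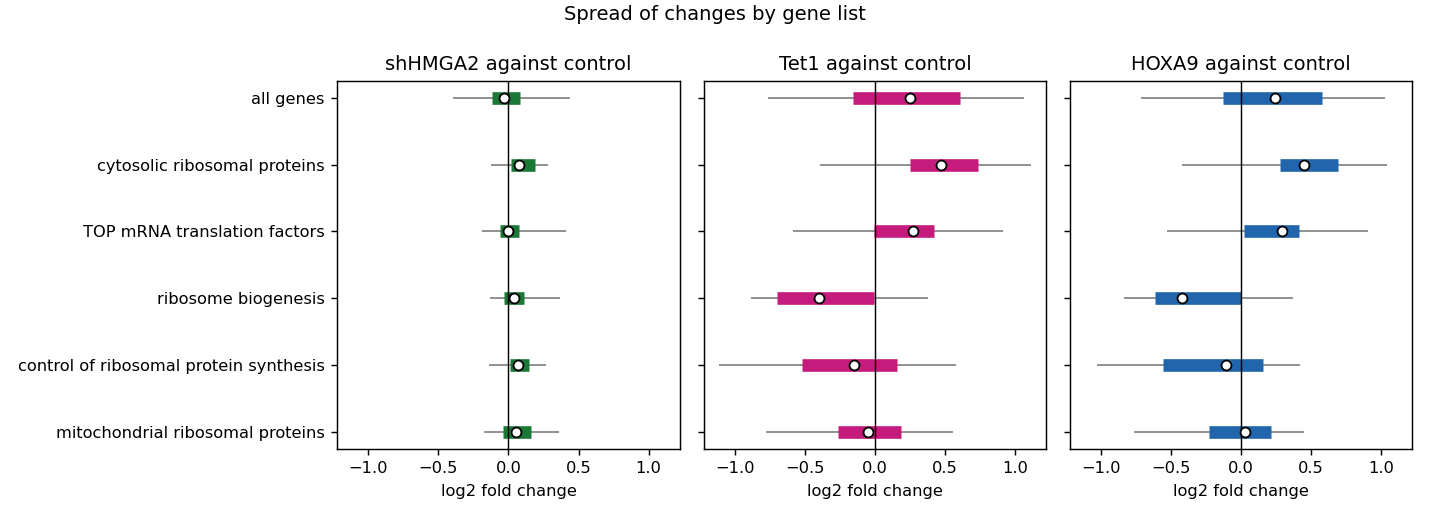
Spread of log2 fold changes against control for all genes, the 67 cytosolic ribosomal proteins and 4 other lists, in shHMGA2, Tet1 and HOXA9. White points are medians, thick bars run from the 25th to the 75th percentile and thin lines from the 5th to the 95th. In both inducible lines, which share control arrays, the median of the cytosolic ribosomal proteins (0.47 and 0.45) lies above that of all genes (0.25 and 0.24) and that of ribosome biogenesis (-0.40 and -0.42) below it.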

How the data were processed

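The authors deposited log2 expression values. Per the submitters' processing notes they used RMA and R 2.11, and the sources used here do not say whether all arrays were processed together. In Tet1 and HOXA9 the column of replicate 3 was the average of its group's other 2 columns in all 33297 probe sets (tolerance 1e-06) and was left out, which left 10 arrays. Probe sets with 1 symbol in the platform annotation (19460) were used, 1754 with several and 12083 not listed were not, and 0 symbols changed through the Entrez ID. A model of 4 group means was fitted to 18417 genes with limma 3.58.1 in R 4.3.3 (6 residual and 5.65 prior degrees of freedom), two-sided, with Benjamini-Hochberg adjustment over all of them and calls at an adjusted p under 0.05. The script was tested on simulated data. A probe set's place was taken from 3 named neighbours on each side. Values of a gene's other probe sets come from a fit of every probe set. The number of arrays limits the precision. Members with values in the text were the 8 rising and 8 falling called members with the largest change per comparison, stalk genes, paralogs, members with over 1 probe set and members of known role, plus up to 2 genes per direction of each list. RPL35, RPS3, the small nucleolar RNAs, TET1 and HMGA2 fall outside this rule and were chosen after their values were seen. The members and lists were chosen with earlier results of these data known.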

Additional observations from a re-analysis of the deposited data

How the results depend on the processing

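For 43 members in 4 comparisons, the calls were recomputed under each alternative. After one quantile normalization Tet1 had 10 members lower and medians fell to 0.31 in Tet1 and 0.24 in HOXA9, and RPL5 turned to -0.063 in Tet1, and RPL5 and RPL31 to -0.029 and -0.0009 in HOXA9. Equal array medians gave 13 higher and 1 lower in shHMGA2, 25 and 18 with a median of 0.0074 in Tet1, and 24 and 18 with a median of -0.0038 in HOXA9. They reversed RPL31 (-0.20), RPL39L (-0.017), RPL5 (-0.11), RPL7A (-0.39), RPL7L1 (-0.37), RPS25 (-0.015), RPS4X (-0.053) and RPS6 (-0.081) in Tet1, and RPL26L1 (-0.00), RPL31 (-0.18), RPL36AL (-0.0063), RPL3L (-0.033), RPL5 (-0.064), RPL7A (-0.42), RPL7L1 (-0.38), RPS2 (-0.042), RPS25 (-0.027), RPS4X (-0.13) and RPS6 (-0.10) in HOXA9. Equal medians lower every Tet1 and HOXA9 value against control by construction. The probe set at the gene's own locus, chosen after seeing the data, reversed RPL12 (-0.017) in shHMGA2, RPL27A (-0.96), RPL5 (-0.36) and RPL7L1 (-0.29) in Tet1, and RPL27A (-0.93) and RPL5 (-0.27) in HOXA9. All 12 columns gave 1 member lower in shHMGA2 and 3 higher in Tet1 than in HOXA9, and a trended, robust prior gave 1 lower in shHMGA2.

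Leaving out 1 array gave 9 to 23 members higher and 0 to 1 lower in shHMGA2, 50 to 51 and 5 to 6 in Tet1, and 50 to 51 and 5 to 7 in HOXA9. Fitting only the compared groups gave 17 higher in shHMGA2. Replicate numbers did not pair the arrays (correlations of same-numbered deviations from -0.19 to 0.17), and with the number as a block 22 members were higher in shHMGA2, 51 and 6 higher and lower in Tet1, 51 and 7 in HOXA9 and 0 between Tet1 and HOXA9. The cause of the other changes was not tested. The 2 arrays of each inducible group limit what differences can be resolved.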
